A study of Homo sapiens with 6 samples.

Results

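The numbered ZNF genes are the largest group of human genes named for zinc fingers, and 247 of the 15917 genes listed for this experiment were taken as well-expressed members of that group. Members were chosen by symbol (ZNF, digits and at most 1 final letter) and selected on their level, a mean normalised count of 200 or more. The symbol alone fits 452 listed genes, so 205 numbered ZNF genes lie under the limit. Total RNA was sequenced from MDA-MB-231, a long-established cell line from a human breast cancer, which in the study carried a luciferase label. Of 6 libraries, 2 came from shCTRL cells (genotype label WT), 2 from shRBMS3-B3 cells (RBMS3 KD1) and 2 from shRBMS3-C3 cells (RBMS3 KD2). In the study's methods, hairpins were delivered by lentivirus and transduced cells were selected with puromycin, which all groups share, and whether any line derives from a single clone is not given in the sources used here. *RBMS3* encodes an RNA binding protein, and the libraries measure gene expression after its knockdown.

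Every level below is 1 value per gene, the authors' mean of normalised counts over libraries. Values of single libraries were not analysed here. The depth of each library, the spread between replicates and any difference between shCTRL, shRBMS3-B3 and shRBMS3-C3 cells are therefore unknown for these genes, and no value carries an SD or a test. Neighbours in an order of levels cannot be told apart or taken as equal.

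A classical C2H2 zinc finger is a short fold in which a pair of cysteines and a pair of histidines hold a zinc ion, and a row of such fingers can read a stretch of DNA. Many of these proteins also carry a KRAB domain near their start. KRAB recruits the corepressor TRIM28, which brings in the histone methyltransferase SETDB1 and heterochromatin proteins, and a well-known role of KRAB zinc finger proteins is to silence transposable elements. Other numbered ZNF proteins have no KRAB domain and act in transcription, chromatin, RNA handling, ribosome assembly or mitosis.

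What most members share is written in their coding sequence. Adjacent fingers are often joined by a conserved linker of 5 residues that starts with threonine and ends with proline. This linker occurred in 159 of the 240 members that GENCODE release 44 annotates as protein-coding, 66.2%, against 3.5% of the 12330 listed genes with a coding sequence. It occurred 909 times in the members and was written with 122 different runs of 15 bases. Around it, the last histidine of one finger and the first cysteine of the next were joined in 887 places by 555 different runs of 27 bases. The most frequent runs, shown because the same bases recur in many members, were these, with the linker in capitals:
joint A: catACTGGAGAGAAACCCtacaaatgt
joint B: catACTGGAGAGAAACCTtacaagtgt
joint C: catACTGGAGAGAAACCTtacaaatgt
Joint A occurred 58 times in 21 members, joint B 39 times in 15 members and joint C 36 times in 21 members. Joints A and C differ only in the last base of the proline codon and encode the same residues. A read is 75 bases long, and recurrence of a shorter joint does not make a whole read fit several genes. *ZNF84*, with 16 linkers, shared no 75-base window with another gene, and *ZNF850*, with 24, shared 0.733% of its windows.

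The study linked RBMS3 to an AUA-rich sequence element, and the letters of that motif were also sought in the 3′UTRs of the members. The motif is 7 bases long and was searched on the transcript strand as A, G or T, then A or T, then ATA, then A or T, then A. In the lines below, 1 match from each of 9 members is printed 5′ to 3′ on the strand of its gene in GRCh38, with the motif in capitals. The first 3 genes have the most matches, the next 3 the most matches per kilobase, and the last 3 are the members with the highest mean normalised counts. Each match is the first in its 3′UTR that lies at least 10 bases from both ends, in 1 exon, with no other match within 10 bases.
*ZNF26*, chr12:133011521-133011547, plus strand: agacttcggaTAATATAgacaggattt
*ZNF268*, chr12:133204869-133204895, plus strand: tgaaccagatGAATATAgaatagactt
*ZNF431*, chr19:21184765-21184791, plus strand: agttcctgctTAATAAAagcattataa
*ZNF608*, chr5:124637481-124637507, minus strand: ttaaaattgtAAATAAAtaatgttatg
*ZNF384*, chr12:6666745-6666771, minus strand: atttctgtgtTTATAAAtgcattatct
*ZNF274*, chr19:58213293-58213319, plus strand: agcacataatGAATAAAtaagaaaatg
*ZNF185*, chrX:152971800-152971826, plus strand: tttgattgagTTATATAgcagtttttc
*ZNF106*, chr15:42416274-42416300, minus strand: gagggggttaGAATAAAgcatctgaat
*ZNF207*, chr17:32369808-32369834, plus strand: cttgtgctgtTTATATAgccaagcttc
A match is a run of letters in an annotated 3′UTR and no evidence of binding. The matches of *ZNF431*, *ZNF608*, *ZNF274* and *ZNF106* also contain AATAAA, the usual polyadenylation signal. In the study's CLIP-seq methods this signal was the most significantly enriched of the motifs found at RBMS3 sites.

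The members spanned mean normalised counts from 200 to 3266, a 16.3-fold range, with a median of 389 and quartiles at 277 and 645. By the rule none lies lower. Just inside the limit were *ZNF680* with a mean normalised count of 200, *ZNF200* with 201 and *ZNF786* with 202. Just outside were *ZNF564* with 198, *ZNF548* with 195 and *ZNF493* with 195. Of the 452 listed numbered ZNF genes 54.6% reached the limit, and of all listed genes 62.8% did. Few members were abundant. A mean normalised count of 1000 was reached by 25 members, 10.1%, and by 25.8% of all listed genes. The 247 members made up 1.55% of the listed genes and 0.599% of the summed mean counts, and the top 10 held 14.6% of the members' sum.

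**Figure D1:**
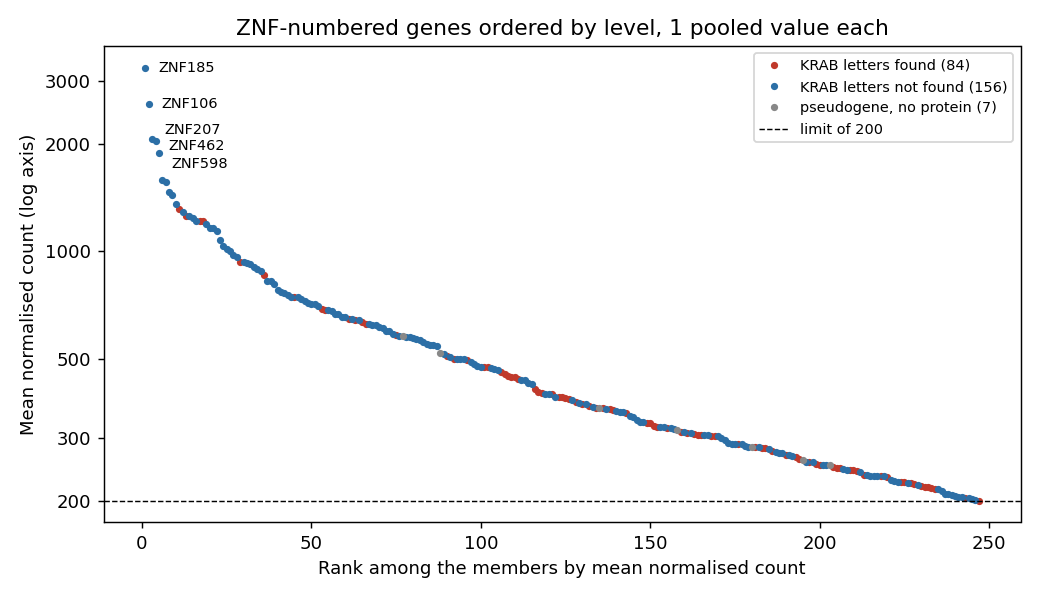
Mean normalised count (log axis) of the 247 members against their rank, 1 pooled value per gene, with colours for coding members in which the KRAB letters were found (84) or not found (156) and for pseudogenes (7). The 4 highest members stand above 2000, no KRAB-lettered member lies among the 10 highest, and the dashed line is the limit of 200.

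The highest member was *ZNF185* (ENSG00000147394), with a mean normalised count of 3266, at percentile 93.3 of all listed genes. It encodes a LIM domain protein of the actin cytoskeleton and, despite its name, held no C2H2 match. *ZNF106*, an RNA binding protein linked to splicing, had 2578. *ZNF207*, known as BuGZ, which helps chromosomes attach to the spindle, had 2063. *ZNF462*, a large chromatin protein with 33 finger matches, had 2033. *ZNF598*, the ubiquitin ligase that marks collided ribosomes, had 1886. The other 5 of the top 10 ran from 1577 for *ZNF395* through 1561 for *ZNF496*, 1466 for *ZNF217* and 1432 for *ZNF664* to 1358 for *ZNF609*. *ZNF217* lies in a region of chromosome 20 that is often amplified in breast cancer. *ZNF609* is a known host of a circular RNA, and in total RNA a count of the gene does not tell linear from circular transcripts. None of the 10 held the KRAB letters. These letters, given below, miss divergent KRAB domains, so their absence does not show that none of the 10 proteins has one.

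Counts grow with transcript length, so genes were compared with each other as mean count per kilobase of a representative transcript. On this scale the members had a median of 95.2 with quartiles at 60.2 and 164, against a median of 137 over 15829 listed genes with a transcript in the annotation. By count the medians were 389 for the members and 364 for all listed genes. The limit of 200 holds for the members alone in these pairs. The 9999 listed genes that also reached it had a median count of 780 and a median of 259 per kilobase, both above those of the members. Nearly all members are protein-coding, while the listed genes include many without a coding sequence. No median level was taken over listed coding genes alone. Member transcripts were longer, with a median of 4431 bases against 2852. Only 78 of 247 members, 31.6%, lay above the median of all listed genes per kilobase. The order among members changed as well, since 2 of the 10 members with the highest counts were among the 10 highest per kilobase.

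Per kilobase the highest members were *ZNF511* with 821, *ZNF593* with 791 and *ZNF622* with 753. *ZNF593* and *ZNF622* are counterparts of yeast proteins that bring the large ribosomal subunit to maturity. *ZNF185* followed with 712 and *ZNF598* with 560. Next came *ZNF767*, an annotated pseudogene, with 460, *ZNF787* with 418 and *ZNF76* with 388. The value of *ZNF767* rests on a mean normalised count of 260 and a transcript of 565 bases, the shortest of any member. All 75-base windows of that transcript are shared with the entry *ZNF767P*. *ZNF76* is a close relative of the transcription factor ZNF143. *ZNF146*, a protein that is little more than a row of fingers, had 371 and *ZNF544* had 367. *ZNF544* was the only one of these 10 with the KRAB letters. The lowest values belonged to *ZNF891* with 18.6, *ZNF704* with 23.4, *ZNF141* with 24.5, *ZNF585A* with 26.2 and *ZNF678* with 28.7 mean counts per kilobase. The representative transcripts of these 5 genes are 17294, 14386, 12601, 8572 and 8543 bases long. If the cells use shorter transcripts than the annotated ones, these levels are too low, and which transcripts they use was not tested.

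Finger number varied widely. A match was counted as a cysteine, 2 to 4 residues, a cysteine, 12 residues, a histidine, 3 to 5 residues and a histidine in the translated coding sequence. The 240 coding members held 2499 matches, with a median of 10 per protein and quartiles at 6 and 13, and 52.1% of them had 10 or more, against 2.46% of all listed coding genes. The most were found in *ZNF142* with 36, *ZNF462* with 33 and *ZNF91* with 31. No match was found in 5 members, *ZNF185*, *ZNF330*, *ZNF703*, *ZNF839* and *ZNF862*. A missing match says only that these letters are absent: *ZNF330* encodes a cysteine-rich nucleolar protein and *ZNF703* belongs to a family with an atypical finger.

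The class with the fewest fingers had the highest median level. The 58 members with 0 to 5 matches had a median of 149 mean counts per kilobase, the 57 with 6 to 9 matches 98.6, the 77 with 10 to 14 matches 72.6 and the 48 with 15 or more 81.4. The ranges overlapped, from 23.4 to 821 in the first class and from 26.2 to 293 in the last. Over 240 members, Spearman's rho between finger matches and level per kilobase was -0.35. With the count not divided by length it was -0.21, and between finger matches and transcript length it was 0.21. Over all 247 members, rho with transcript length was 0.20 for the count and -0.58 for the level per kilobase. The level per kilobase thus tends to place members with long transcripts low. These genes share libraries, and length enters the level per kilobase, so rho is given as a description.

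**Figure D2:**
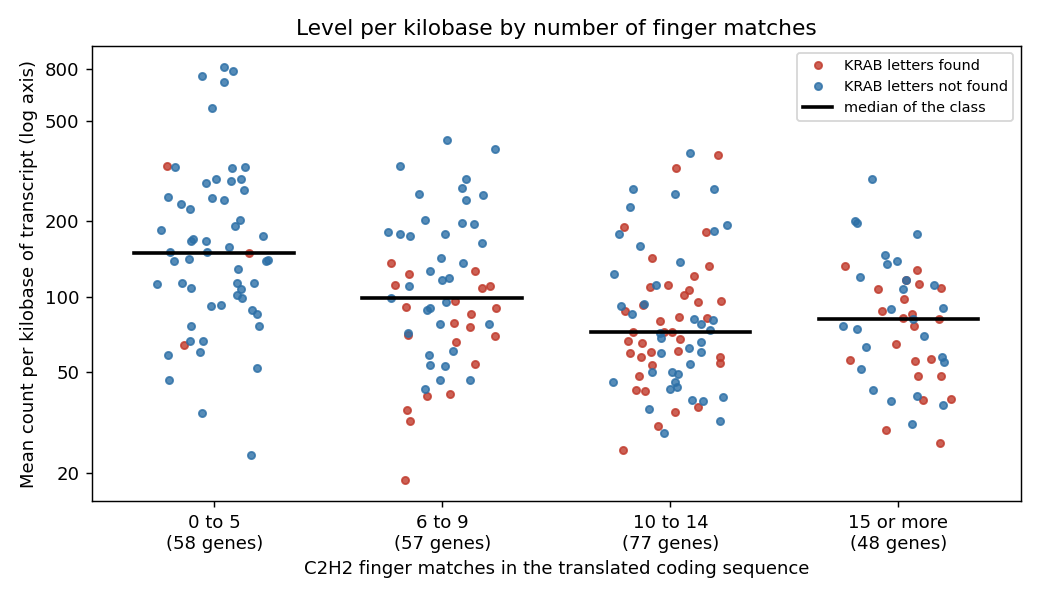
Mean normalised count per kilobase of transcript (log axis) of the 240 coding members in 4 classes of C2H2 finger matches, with 1 point per gene coloured by the KRAB letters and a bar at each class median. The medians are 149, 98.6, 72.6 and 81.4, all 5 members above 500 have at most 5 matches, and the ranges of the classes overlap.

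The KRAB letters were a phenylalanine, any residue, an aspartate, a valine, isoleucine, methionine or leucine, an alanine or serine, 5 to 9 residues, a glutamate, any residue and a tryptophan. They were found in 84 of the 240 coding members, 35% (95% exact binomial interval 29 to 41.4%). The share in all listed coding genes was 1.55%. The letters miss divergent KRAB domains, and a shorter form, the first 5 positions with only valine and alanine allowed, was found in 105 members. *ZNF445*, *ZNF268* and *ZNF33A* are KRAB proteins that neither form picked up. Members with the letters had a median mean normalised count of 330 and members without them 487. Per kilobase the medians were 77.4, with quartiles at 55.1 and 108, and 111, with quartiles at 65.4 and 191. Median transcript length was close, 4544 and 4438 bases. With the shorter form the medians per kilobase were 80.1 and 113. Of the members with the letters, 4 reached a mean normalised count of 1000: *ZNF587* with 1310, *ZNF460* with 1255, *ZNF562* with 1217 and *ZNF544* with 1211. Without the letters 21 did, among them the KRAB protein *ZNF445* with 1254, so this group is not free of KRAB proteins.

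Chromosome 19 carries the great clusters of KRAB zinc finger genes that arose by repeated local duplication, and 107 of the 247 members, 43.3% (95% exact binomial interval 37.1 to 49.8%), lie on it. Of all listed genes with a position, 7.04% do. Of the 205 listed numbered ZNF genes under the limit, 114 do, 55.6%. The high share is thus not special to the members, and it was lower in them than under the limit. Chromosome 7 followed with 18 members and chromosome 16 with 15, and 21 chromosomes had at least 1. The KRAB letters were found in 64 members of chromosome 19 and in 20 elsewhere. The median mean normalised count was 358 on chromosome 19 and 471 elsewhere, while the medians per kilobase were 90.7 and 100. Among members with the KRAB letters, the medians per kilobase were 79.9 on chromosome 19 and 70.4 elsewhere, and among those without them 112 and 111. With the KRAB letters the higher median per kilobase was thus on chromosome 19, though over only 20 members elsewhere. With the shorter form the medians were close, 81.2 over 69 members on chromosome 19 and 79.1 over 36 elsewhere. Among members without that form they were 110 and 115. How position and KRAB class relate to level was not tested.

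When members of chromosome 19 less than 500 kilobases apart were joined, they fell into 19 runs, of which 8 held 5 or more members and 89 members in all. The largest run (chr19:57191500-58481230) held 26 members of 41 listed numbered ZNF genes, with a median mean normalised count of 346. Its range went from 204 for *ZNF419* to 1310 for *ZNF587*, and it also holds *ZNF274* with 931, whose protein brings SETDB1 to other zinc finger genes. The next run (chr19:52012765-53580269) held 20 members of 33 listed, from 203 for *ZNF614* to 859 for *ZNF347*. The share of listed genes that passed the limit differed between runs. Each run starts and ends at a member, which raises this share by construction. Over all of chromosome 19, 107 listed genes with a numbered ZNF symbol were members and 114 were not. In the run at chr19:8509678-9675100, 9 of 10 listed numbered ZNF genes were members, and in the run at chr19:11483427-12633840, 7 of 24 were. High and low members occurred in the same run. At chr19:36214602-37393066, *ZNF146* had a mean normalised count of 1240 and the next member along, *ZNF260*, had 205. Listed genes that are not members were left out of this order.

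**Figure D3:**
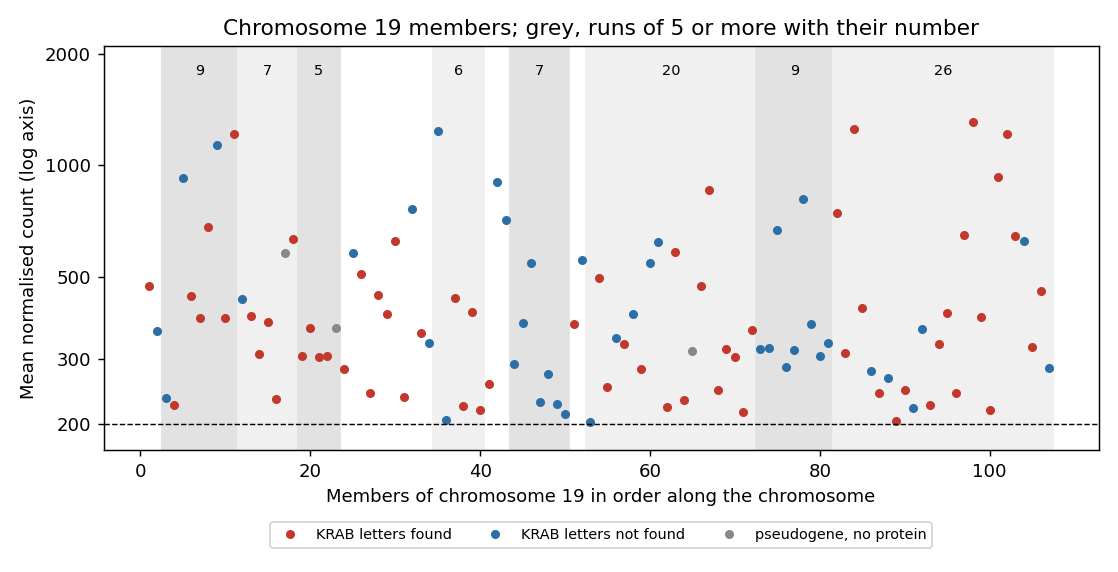
Mean normalised count (log axis) of the 107 members of chromosome 19 in their order along it, with 1 point per gene coloured by the KRAB letters; grey bands mark the 8 runs of 5 or more members, each with its number of members. Within the largest run, of 26 members, values reach from 204 to 1310.

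The next 3 lists put functions to these levels and carry no test. Of 24 KRAB zinc finger genes linked to transposable elements, 23 were listed and 14 were members. The members among them had a median of 77.5 mean counts per kilobase. *ZNF91*, which silences SVA and some LINE-1 elements, had a mean normalised count of 626, while *ZNF93*, which acts on LINE-1, lay under the limit with 188. *ZNF611* had 619, *ZNF43* 447, *ZNF808* 397 and *ZNF765* 319. *ZNF382* was low at 69.

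Of 31 regulators of transcription and chromatin listed as lacking KRAB, 30 were listed and 28 were members, with a median of 139 mean counts per kilobase among members. The zinc finger partners of the ZMYND8 complex had 1160 for *ZNF592*, 573 for *ZNF687* and 354 for *ZNF532*. *ZNF335*, a subunit of a histone methyltransferase complex, had 1191, *ZNF384* 999 and *ZNF644*, a partner of the methyltransferases G9a and GLP, 965. *ZNF410*, a regulator of *CHD4*, had 754, and *ZNF281* had 680. *ZNF143*, an activator of snRNA and many housekeeping promoters, had 366 against 1031 for its relative *ZNF76*.

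Of 18 genes in a list headed RNA handling, ribosomes, ubiquitin, SUMO and mitosis, 15 were listed under these symbols and 14 were members. These 14 had a median of 171 mean counts per kilobase. They include *ZNF185* with 712, whose role in the actin cytoskeleton is none of these functions, and no median was taken without it. Beside those named above, *ZNF451*, a SUMO ligase, had a mean normalised count of 975, *ZNF318* 877, *ZNF638* 734, *ZNF326* 572 and *ZNF346*, which binds double-stranded RNA, 383. *ZNF385A* with 209 and *ZNF830* with 208 stood near the limit. The medians per kilobase of the 3 lists thus stood at 77.5, 139 and 171, beside 95.2 for all members. These cover only genes that reached the limit. Over all listed genes of each list they were 63.6, 132 and 150, beside 57.1 for the 452 listed numbered ZNF genes. The first list thus stood below the family median with the limit and above it without.

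The corepressors that KRAB proteins use had a median level well above that of the members. All 20 genes of the list found under a listed symbol lay above 200, with a median mean normalised count of 2337 and a median of 662 per kilobase, against 389 and 95.2 for the members. *TRIM28* had a mean normalised count of 10540 and 3133 per kilobase, *CHD4* 9244 and *DNMT1* 12528. *SETDB1* was the lowest of the list with 763, and *MPHOSPH8* of the HUSH complex had 775. Per kilobase, *TRIM28* exceeded the highest KRAB-lettered member, *ZNF544* at 367, by a wide margin, while *SETDB1* with 173 did not exceed it.

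In the 3′UTR, 214 of the 240 members with an annotated one held at least 1 AUA motif, 89.2% (95% exact binomial interval 84.5 to 92.8%), against 85% of 12273 listed genes. Member 3′UTRs were longer, with a median of 2044 bases against 1379, and similar in base composition, with a median A+U content of 58.9% against 57.9%. Within classes of length the shares were close. Under 1000 bases, 69.4% of 62 members and 70.5% of all listed genes held the motif. From 1000 to under 3000 bases the shares were 92.5% of 93 members and 92.7%, and from 3000 bases on they were 100% of 85 members and 98.4%. Matches per kilobase were 2.79 in members and 2.8 in all listed genes. By class they were 2.9 and 3.43 under 1000 bases, 2.8 and 2.8 in the middle class, and 2.78 and 2.71 from 3000 bases on. Of the 1902 matches in members, 35.3% contained AATAAA, a share that was not computed over all listed genes.

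The motif was spread unevenly over members. *ZNF26* held 67 matches in a 3′UTR of 15621 bases, *ZNF268* held 61 in 10302 and *ZNF431* held 59 in 12019. *ZNF608* held 17 matches in only 985 bases, 17.3 per kilobase, followed by *ZNF384* with 10.5 and *ZNF274* with 9.55. Among the members of highest level, *ZNF207* held 33 matches, *ZNF609* 18, *ZNF106* 12, *ZNF217* 7 and *ZNF185* 4. No match was found in 26 members, among them *ZNF335*, *ZNF646* and *ZNF574*, and their median 3′UTR measured 458 bases. Members with and without a match had median mean normalised counts of 391 and 395. Per kilobase of transcript the medians were 88.1 and 168, beside transcripts of 4642 and 2624 bases. Of the members with the KRAB letters 96.4% held the motif and of those without them 85.3%, with median 3′UTRs of 2400 and 1855 bases and 2.85 and 2.75 matches per kilobase.

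**Figure D4:**
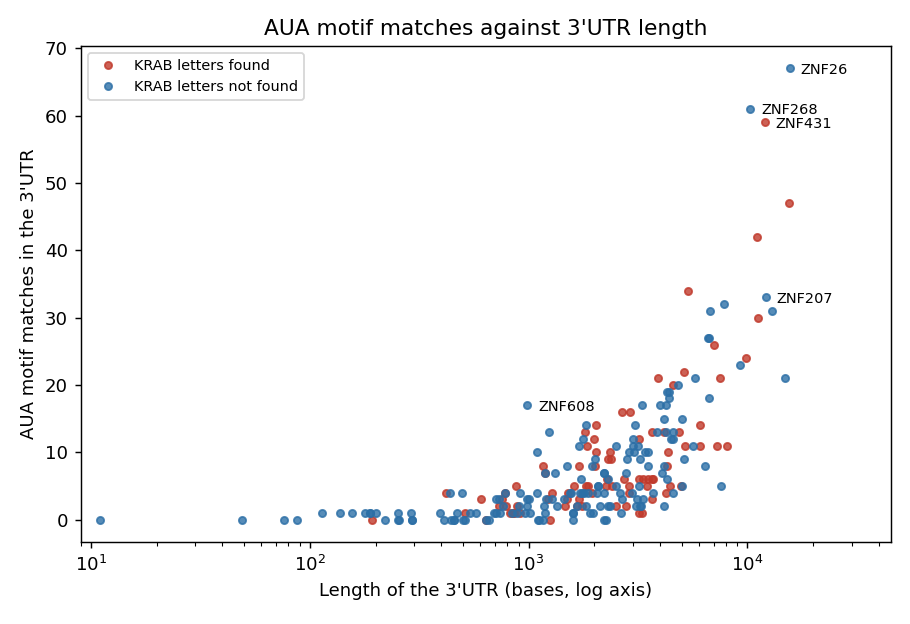
AUA motif matches in the annotated 3′UTR against its length in bases (log axis) for the 240 coding members, with 1 point per gene coloured by the KRAB letters. Matches rise with length to 67 in *ZNF26*, and *ZNF608* stands above the rest at its length with 17.

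The members include 7 annotated pseudogenes, which the symbol rule does not separate. *ZNF788* had a mean normalised count of 579, *ZNF252P* 518, *ZNF826P* 364, *ZNF702P* 315, *ZNF37B* 283, *ZNF767* 260 and *ZNF271P* 251. A gene that shares sequence with another entry of the annotation can lose or gain reads in counting. To see how much sequence is shared, every 75-base window of a member's transcript, the length of a read, was sought in transcripts of other genes. No window was shared in 139 members, 20% or more of the windows in 19 and 50% or more in 8. The partner could be a near copy elsewhere, a read-through gene or a second entry at the same place. Those 8 were *ZNF252P* and *ZNF767* (100% each), *ZNF23* (97.1%), *ZNF826P* (96%), *ZNF788* (93%), *ZNF410* (82.7%), *ZNF286A* (65.1%) and *ZNF724P* (51.9%). Of the members of highest level *ZNF395* shared 41.5% of its windows, mostly with its neighbour *FBXO16*, and *ZNF511*, the highest per kilobase, shared 42.9%, mostly with the read-through gene *ZNF511-PRAP1*. *ZNF587* shared 18.6%, mostly with its near copy *ZNF417*, whose mean normalised count was 389, and *ZNF585B* with 402 shared 21.1%, mostly with *ZNF585A* at 224. Levels of these genes are less certain, but a share of windows is not the size of an error in counting. Whether the authors' annotation held the same partners is not given in the sources used here. Without the 19 members the median level per kilobase was 94.3. A gene on the opposite strand overlapped 145 members, 58.7%, and a gene on the same strand overlapped 99, 40.1%. Overlap on the same strand cannot be resolved by strand, and whether counting used the strand is not given in the sources used here.

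For the series as a whole, the marker lists drawn up for the cell line held in part. Its mesenchymal markers were high, with mean normalised counts of 69335 for *VIM*, 35387 for *AXL*, 10047 for *CD44* and 6228 for *FN1*. Of 7 markers listed as low, *CDH1* stood at 31.6, *EPCAM* at 107 and *GATA3* at 171, and *ESR1* and *PGR* were not among the genes listed. *KRT8* with 17802 and *KRT18* with 12689 were on the same list and were high. The list did not hold for these keratins, and no other profile of the line was compared, so they do not speak against its identity. Of 4 markers of other cells, *PECAM1* had 69 and *COL1A1* 192, while *PTPRC* and *HBB* were not among the genes listed. *RBMS3*, the target of both hairpins, had a mean normalised count of 272 over libraries and *TXNIP* had 887. A pooled mean checks no label.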

How the data were processed

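Total RNA of MDA-MB-231 cells was sequenced as 75-base paired ends after a stranded kit for small inputs with depletion of ribosomal cDNA, in 6 libraries of 3 groups. The authors deposited 1 table with a row per gene. The deposited signal used here is the mean of normalised counts over libraries, of which 15917 were read, the lowest being 26.7. It is not divided by length. A supplementary caption gives 2 biological replicates each of knockdown and control cells for the comparison, fewer than the 6 libraries. Whether the mean covers 4 or 6 of them, and the annotation, are not given in the sources used here. The submitters' processing notes name Salmon, DESeq2 and hg38, with no version of the tools. Per the file headers, the other columns hold the authors' own comparison of knockdown with control (log2 fold change, its standard error, test statistic, p-value and adjusted p-value). They were not used, so no knockdown effect is reported. The design had foreseen a count test for values per library, which was not run.

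GENCODE release 44 (GRCh38) was matched on the Ensembl gene ID and lacked 88 of the genes. A gene was represented by its MANE Select transcript (238 members), failing that by the canonical transcript, and failing both by the transcript of longest coding sequence. Finger matches start at least 20 residues apart. A 3′UTR had at least 7 bases, and motif matches were counted with overlaps. All 15 sites extracted matched the hg38 sequence. Symbols are printed as in the table and differ from GENCODE for 4 members. Members, lists and letters searched were chosen with earlier results of these data known. Intervals are Clopper-Pearson and cover sampling of genes, which are not independent, and no measurement error. Named are the extremes by count, level per kilobase, fingers and motif, the genes next to the limit, and genes of the lists; genes named for sharing windows, for their place in a run or as pseudogenes were chosen after their values were seen. The sequence functions were tested on simulated sequences. Python 3.11.15, numpy 2.4.6, SciPy 1.17.1 and matplotlib 3.10.9 were used.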

Additional observations from a re-analysis of the deposited data

How the results depend on the processing

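Over 7 results and 17 alternatives, 11 left a count or median within 1.5 times, or a share within its 95% interval. The number of members fell from 247 to 118 with a limit of 400. Without the limit the median mean normalised count fell from 389 to 224 and the median per kilobase from 95.2 to 57.1, since genes of lower level enter. The share on chromosome 19 was 33.9% with a limit of 400, against 43.3%. The share with the KRAB letters was 43.8% with the shorter letters, against 35%. The share with the AUA motif was 66.2% when at least 3 matches were required, against 89.2%. Per kilobase, the median was 88.1 with the longest transcript and 67.7 with the union of exons, beside 119 and 88.7 for all listed genes. No pseudocount was needed because no value was 0. Leaving out each library in turn was not run, since values per library were not analysed here. No paired analysis was possible because all values are means over libraries and carry no replicate. The depth behind each mean is unknown.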

Other observations

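Other families of zinc finger genes were listed in smaller numbers. A mean normalised count of 200 was reached by 27 of 38 ZBTB genes, 10 of 13 KLF genes, 9 of 17 ZFP genes, 9 of 16 ZSCAN genes and 5 of 7 ZKSCAN genes. Among the genes that reached it, the median level per kilobase was 93.3 for ZBTB, 145 for KLF, 114 for ZFP, 88.7 for ZSCAN and 78.3 for ZKSCAN, beside 95.2 for ZNF and 259 for all listed genes. The highest of these families was *ZFP36L1*, an RNA decay factor with CCCH fingers, with a mean normalised count of 3537, followed by *ZBTB7A* with 2402, *KLF6* with 2013, *ZKSCAN1* with 1212 and *ZSCAN18* with 1028.

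GENCODE release 44 annotates 508 protein-coding genes with a numbered ZNF symbol, of which 439, 86.4%, were listed and 240 were members. On chromosome 19, 87.4% of 246 such genes were listed and 42.3% were members. Elsewhere 85.5% of 262 were listed and 51.9% were members. Among the 200 coding ZNF genes under the limit, 45% held the KRAB letters, against 35% of the coding members. These under-limit genes had a median A+U content of 62.2% in the 3′UTR and 3.48 AUA matches per kilobase, against 58.9% and 2.79 in the members. No explanation of these differences was tested.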
